A study of Mus musculus with 26 samples.

Results

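The Wnt genes described here are 39 genes in 3 classes, 19 Wnt ligands, 12 receptors (Fzd1 to Fzd10, Lrp5 and Lrp6) and 8 secreted antagonists (Dkk1, Dkk2, Dkk3, Sfrp1, Sfrp2, Sfrp4, Sfrp5 and Wif1). A gene was given every cytosine of a CpG that lay inside its RefSeq span on GRCm38 or within 2000 bp of it and that had at least 10 reads in a library. In all, 7445 of the 2626470 positions with that coverage belonged to the 39 genes, out of 38983 RefSeq genes with such a position.

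Wnt ligands are secreted, lipid-modified proteins that bind Frizzled receptors together with the coreceptors Lrp5 or Lrp6, which stabilises beta-catenin and switches on its target genes, while other Wnt ligands act without beta-catenin. Dkk proteins block the coreceptors, whereas Sfrp proteins and Wif1 bind the ligands themselves. In the testis, Wnt signals act on spermatogonia, and the starts of developmental genes of this kind lie in CpG-rich DNA that is usually free of methylation in sperm.

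Reduced-representation bisulfite sequencing (RRBS), in which CpG-rich restriction fragments are sequenced after unmethylated cytosines have been converted, was performed on epididymal sperm of 26 male mice in 6 groups to ask whether sperm methylation is altered after spermatogonial stem cell transplantation (SSCT). The 3 SSCT F0 mice were sterile W/W-v recipients whose sperm derived from DBA/2J spermatogonial stem cells kept in long-term culture, whereas DBA/2J males made up the 3 control F0 mice, all sampled at 16 to 18 months. The offspring, 5 mice per set, were sampled at 3 months and carried the DBA/2J strain label. Control F1 mice descended from DBA/2J males and SSCT F1 mice from SSCT F0 males, while SSCT F2/M mice had SSCT F1 mothers and SSCT F2/P mice had SSCT F1 fathers. Recipient genotype, the WBB6F1/J strain background of the recipients, transplantation and cell culture therefore differ together between SSCT F0 and control F0 and cannot be told apart, and the same holds for the lower amount of DNA that, per the labels, went into all 3 SSCT F0 libraries.

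Libraries held 45616751 to 87707577 reads over covered positions, and the 20 offspring libraries each covered 4372 to 5606 positions of the Wnt genes. In the F0 groups, SSCT F0 replicate 3 stood apart. It covered only 781 positions of the Wnt genes, against 4942 and 3430 in SSCT F0 replicates 1 and 2 and 4712 to 5710 in the control F0 mice, and at a median of 407 reads per position against 24 to 39 in the other F0 libraries. Of the Wnt positions that were unmethylated in the offspring (mean below 20%), it covered 22.8%, but of those that were methylated (80% or more) it covered 0.645%. SSCT F0 replicate 2 covered 77.8% and 34.8% of these and replicate 1 covered 97.5% and 92.3%, so the positions shared by all F0 mice lie mostly in unmethylated DNA. Marker loci differed as well, with each mouse averaged over its own covered positions. The mice are thus not compared at the same cytosines, and H19 and Rasgrf1 were taken over their gene spans with flanks. Snrpn, another marker, had too few covered positions in every mouse. H19, methylated on the paternal allele, was at 59.3 to 71.2% in control F0 and at 0.0282 to 66.4% in SSCT F0, and Rasgrf1, also paternally methylated, was at 39.7 to 40.9% and at 12.9 to 36.7%. The maternally methylated Peg3 was at 0 to 6.4% in control F0 and at 3.12 to 33.3% in SSCT F0, and Peg10 was at 26.3 to 47.1% over all mice, while Mest, Plagl1 and the germline genes Dazl, Ddx4 and Sycp3 reached at most 12.6% in any mouse. The part of coverage, DNA amount and other cells in the F0 results was not tested.

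The offspring sets are named here by the sample titles, but the clustering heatmap of the study gives the same 4 sets of 5 libraries other names, and coverage means do not match the titles. SSCT F2/M under the titles is control F1 under the heatmap, for example, and the treatment label of that set reads WT. With the 2 F2 sets of the heatmap exchanged, 52 of 55 coverage means matched, against 35 under the heatmap naming and 0 under the titles, and the numbers of positions tested also lay closest to the published ones under this exchanged naming. The titles are the deposited labels and are kept for the main values, but they are doubtful, and each offspring difference below is under the titles unless another naming is given. The comparisons are repeated under both other namings, and a test over the 4 sets that needs no names is added.

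The range of sequence at the starts of Wnt genes is shown by windows of 300 bases, 250 before and 50 after a RefSeq start on GRCm38.p6, read 5′ to 3′ on the strand of the gene with every CpG in capitals. They were chosen because Wnt9a has the most CpGs (58) of the 29 member starts with a sequence, and because the outermost and innermost listed starts of Wnt5b (47 and 7 CpGs) differ in methylation. Wnt9a acts as a ligand in skeletal and blood development, and Wnt5b mainly through beta-catenin-independent signalling. The windows are at chr11:59306680-59306979 (plus strand), chr6:119544298-119544597 (minus strand) and chr6:119449337-119449636 (minus strand).
Wnt9a: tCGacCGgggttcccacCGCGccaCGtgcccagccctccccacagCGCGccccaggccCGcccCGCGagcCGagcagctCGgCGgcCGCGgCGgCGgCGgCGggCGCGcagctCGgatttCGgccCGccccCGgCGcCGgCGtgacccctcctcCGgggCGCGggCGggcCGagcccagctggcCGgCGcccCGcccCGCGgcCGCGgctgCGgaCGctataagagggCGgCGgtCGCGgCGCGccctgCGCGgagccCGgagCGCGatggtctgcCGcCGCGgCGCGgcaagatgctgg
Wnt5b outermost start: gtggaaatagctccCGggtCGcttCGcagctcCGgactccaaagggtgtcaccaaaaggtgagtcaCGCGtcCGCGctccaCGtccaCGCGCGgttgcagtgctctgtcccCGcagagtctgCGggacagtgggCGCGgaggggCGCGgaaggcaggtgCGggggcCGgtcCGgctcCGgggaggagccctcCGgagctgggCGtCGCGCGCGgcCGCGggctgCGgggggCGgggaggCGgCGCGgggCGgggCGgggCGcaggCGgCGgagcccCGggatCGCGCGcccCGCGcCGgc
Wnt5b innermost start: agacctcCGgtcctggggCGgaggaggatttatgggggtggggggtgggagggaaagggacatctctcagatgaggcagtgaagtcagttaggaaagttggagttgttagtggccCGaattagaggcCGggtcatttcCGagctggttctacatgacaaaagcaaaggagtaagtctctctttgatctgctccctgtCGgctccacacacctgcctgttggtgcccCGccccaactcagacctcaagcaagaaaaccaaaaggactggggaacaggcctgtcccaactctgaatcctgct
Within 500 bp of these starts, mean methylation over the 20 offspring was 2.76% at Wnt9a (11 positions), 1.67% at the outermost start of Wnt5b (28 positions) and 9.49% at the innermost (5 positions). Between single mice the level ranged from 0 to 9.15%, from 0.146 to 4.26% and from 0 to 27.0%, respectively. The CpG-poor start of Wnt5b thus varied more between mice than its CpG-rich start, on fewer positions.

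The listed starts of Wnt genes with enough coverage were nearly free of methylation in sperm. At 24 of the 29 starts, in 23 genes, at least 3 positions within 500 bp were covered in all 20 offspring libraries, and all 24 were below 10%, with a median of 1.69%. Over all genes with a listed start, 11951 of 32851 starts had that coverage, 95.6% of them were below 10%, and the median was 1.7%. A median of 26 CpGs lay in the 300-base windows of the Wnt genes, against 7 over all genes. Wnt genes without a listed start, among them Lrp5, Fzd6, Fzd3, Wnt8a, Sfrp1 and Dkk3, enter neither these values nor the distances below.

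Farther from the start, methylation rose in both, with distances taken from the outermost listed start of each gene. Mean methylation in the offspring was 1.46% from the start to 500 bp downstream in the Wnt genes and 2.82% in all genes. From 1000 to 2000 bp it was 3.62% and 16.0%, from 2000 to 5000 bp 21.8% and 36.5%, and beyond 5000 bp 43.9% and 58.7%. Upstream, from 2000 to 1000 bp before the start, the means were 18.6% and 19.4% and the medians 3.43% and 2.30%. These are descriptions of positions that RRBS covers, over 8 to 10 Wnt genes in the bins from 1000 to 2000 bp on either side, and were not tested.

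**Figure D1:**
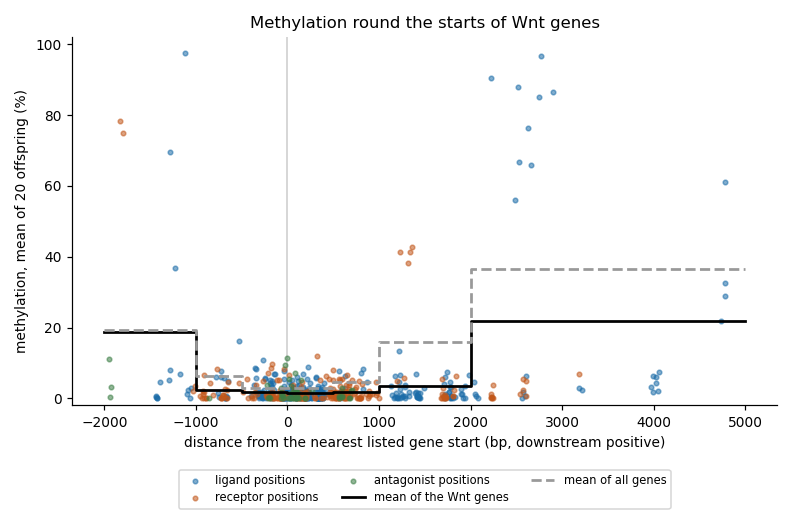
Methylation (%, mean of the 20 offspring) at positions of Wnt genes with a listed start, against the distance from the outermost one (bp, downstream positive). Points are coloured by class, and lines are the means over bins for Wnt genes and all genes. The axis wording (nearest start) does not hold for Wnt5b and Wnt11, which have further listed starts. Positions within 500 bp sit near 0 in all 3 classes, 4 Fzd10 positions lie at 38.3 to 42.9% between 1231 and 1360 bp downstream, and positions of Fzd9, Wnt3a and Wnt1 lie at 36.7 to 97.5% more than 1000 bp upstream.

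Over whole gene regions, the 3 classes differed in their typical gene and hardly between offspring sets. The median gene was at 12.5 to 14.2% among ligands, 3.80 to 4.07% among receptors and 17.9 to 20.7% among antagonists over the 4 sets, and the class means were closer because Lrp5, Fzd6 and Fzd3 lift that of the receptors. At positions covered in all offspring and control F0 libraries, the mean of 17 ligands was 16.7% ± 0.158 (SD, n = 5) in control F1, 16.8% ± 0.178 in SSCT F1, 17% ± 0.199 in SSCT F2/M, and for SSCT F2/P 16.8% ± 0.464. The mean of 12 receptors was 16.5% ± 0.282, 16.5% ± 0.254, 16.4% ± 0.333 and 16.4% ± 0.546 in the same order. The mean of 6 antagonists was 20.9% ± 1.54, 19.8% ± 1.10, 19.9% ± 0.976 and 19.8% ± 0.804. The widest gap, of antagonists between control F1 and the SSCT sets, was smaller than the SD of control F1, while ligands in SSCT F2/M lay above control F1 by more than the SD of either set, with mice from 16.6 to 17.1% against 16.5 to 16.9%. These class means were not tested, and 3-month offspring and the 16- to 18-month control F0 mice (17.1%, 16.2% and 19.9% for the 3 classes, n = 3) lay close together. All 22100 genes with such positions had a higher mean, 30.7 to 30.8% in every group. The median of all genes was 17.3 to 17.5%, above the medians of ligands and receptors but below the 17.9 to 20.7% of the 6 antagonists.

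Among ligands, the gene-level mean over the 20 offspring was lowest in Wnt10b (2.41%, 1.31 to 3.74% over mice), Wnt5a (2.75%, 1.5 to 4.07%) and Wnt1 (3.80%, 2.48 to 5.61%). Wnt5a is a beta-catenin-independent ligand that supports spermatogonial stem cells, and Wnt1 and Wnt10b are canonical ligands. These ranges overlapped, so their order does not exceed the spread between mice. The highest ligands were Wnt8a (46.6%, on 3 positions, 30.5 to 65.2%), Wnt2b (39.8%, 36.7 to 41.9%) and Wnt7a (33.1%, 31.6 to 34.2%). Wnt2b and Wnt7a did not overlap, whereas Wnt8a spanned both.

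Receptors showed the widest range. The 3 lowest, Fzd4 (1.08%, 0.0870 to 2.20%), Fzd8 (1.14%, 0.394 to 3.05%) and Fzd1 (1.34%, 0 to 2.69%), could not be ordered. The highest were the coreceptor Lrp5 (74.1%, 72.4 to 75.3%) and the planar cell polarity receptors Fzd6 (48.5%, 39.8 to 53.5%) and Fzd3 (43.0%, 42.0 to 44.1%). Lrp5 did not overlap with any other Wnt gene, whereas Fzd6 and Fzd3 overlapped. Among antagonists, Dkk2 (1.87%, 0 to 10.9%), Sfrp2 (1.89%, 0.589 to 3.33%) and Sfrp5 (3.77%, 0 to 23.5%) were lowest, Dkk2 and Sfrp5 on 4 and 3 positions. Wif1 (42.7%, 37.5 to 48.9%), Sfrp1 (36.0%, 28.5 to 38.0%) and Dkk3 (33.8%, 31.2 to 36.0%) were highest. Wnt16 had 1 common position, and Dkk1 and Sfrp4 had none and are left out of these means. A level between 0 and 100% in bulk sperm does not tell partial methylation in all cells from full methylation in some.

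**Figure D2:**
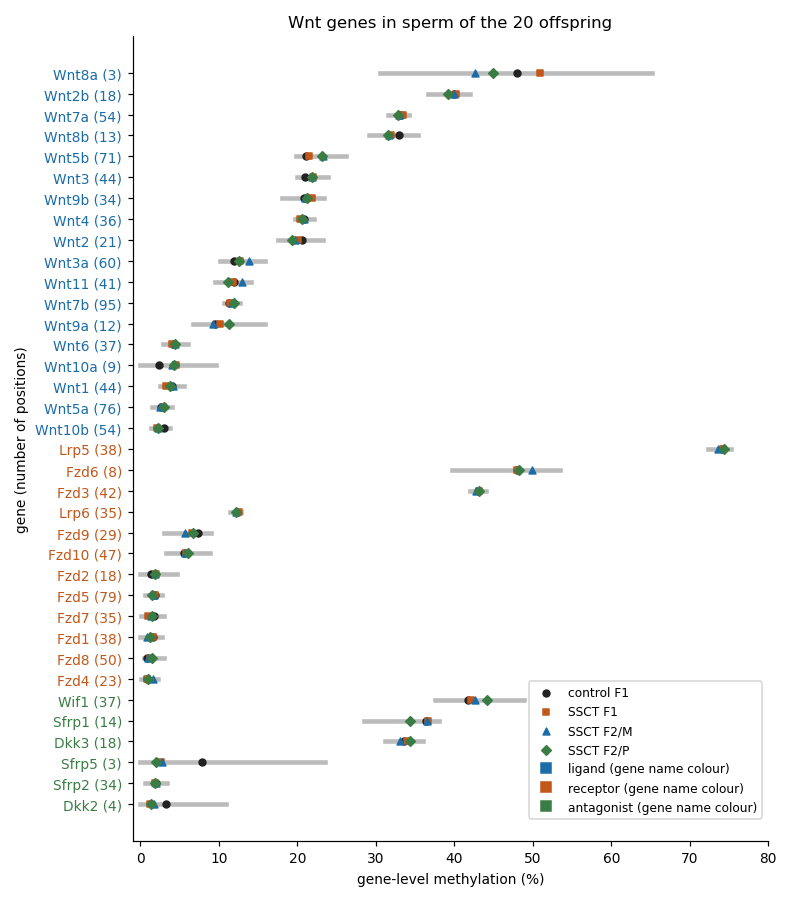
Gene-level methylation (%) of each Wnt gene with at least 3 positions covered in all 20 offspring libraries, with the number of positions in brackets. Points are the means of the 4 offspring sets and grey bars span the lowest to the highest mouse. Lrp5 stands alone at 74.1%, and the set means of each gene lie close together.

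Differentially methylated cytosines (DMCs) were called at a q-value under 0.01 (chi-square likelihood-ratio test on reads, Benjamini-Hochberg over all positions) where the difference, weighted by reads, exceeded 25 points of percent methylation, and differentially methylated regions (DMRs) in the same way on windows of 1000 bp. Variation from mouse to mouse does not enter this test. Exact permutation p-values below are for positions already called in the same mice and are not corrected for that choice. Over the 4 comparisons, 20 of the 39 Wnt genes held a DMC and 19 held none. The SSCT F0 comparison gave calls in 15 genes, the offspring comparisons in 6, and Wnt5b was in both. The share of all genes holding a DMC was not computed, so these gene counts have no background and are no result about Wnt genes. The same holds for the counts of calls without overlap between groups given below.

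In the comparison of SSCT F0 with control F0, 19 of 387 Wnt positions (4.91%) were DMCs, 14 higher and 5 lower in SSCT F0. The background was 5.83% of 82250 positions, with 2.63% higher and 3.20% lower, so the share in the Wnt genes was near that of all positions. Ligands held 9 of 196 tested positions (4 higher, 5 lower, 6 genes), receptors 6 of 168 (all higher, 6 genes) and antagonists 4 of 23 (all higher, 3 genes). Wnt16, Wnt8a, Sfrp1, Sfrp4, Sfrp5 and Dkk1 had no position covered in all 6 libraries. At 13 of the 14 higher positions, SSCT F0 replicate 3 was the highest SSCT F0 mouse, at 100% in 11 of them, and at all 5 lower positions it was at 0.

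The calls in receptors were single cytosines at which SSCT F0 replicate 3 was fully methylated. Fzd9, a Frizzled of brain and bone, was at 0, 0 and 100% in SSCT F0 replicates 1 to 3 and at 0 in each control F0 mouse at chr5:135251102, in the flank 55 bp upstream of its start (361 reads in replicate 3). Lrp6, the coreceptor of canonical signalling, showed the same values at chr6:134567086, 173 bp outside its span. Fzd5, a receptor of eye and gut, was at 11.4, 0 and 100% against 0, 0.658 and 13.4% at chr1:64737962, 212 bp upstream of its start. One mouse decides each of these calls, and the groups overlapped at all of them. Fzd7, a receptor of stem and progenitor cells, was at 30.0, 3.57 and 100% against 0, 0 and 16.3% at chr1:59483439, inside its span and 1292 bp downstream of the start. Fzd3 was at 0, 0.529 and 100% against 0, 3.64 and 0% at chr14:65261959, and Fzd8 at 0, 0 and 100% against 0, 14 and 0% at chr18:9214023, both inside their spans. In the 20 offspring, set means at these positions stayed at 0 to 17.3%, the highest being Fzd8 in SSCT F2/M.

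Antagonists followed the same pattern with 1 exception. Dkk2, a coreceptor-binding antagonist, and Dkk3, a divergent Dkk family member, were at 0, 0 and 100% in SSCT F0 against 0 in all controls, at chr3:132085699, 407 bp downstream of the start of Dkk2, and at chr7:112158645, inside the span of Dkk3. Sfrp2, a ligand-binding antagonist, held 2 DMCs. At chr3:83764053, in the flank 2268 bp upstream of the start, it was at 7.81, 0 and 100% against 0, 0 and 15.5%. At chr3:83766338, 17 bp downstream of the start, it was at 18.5, 1.01 and 56.9% in SSCT F0 and at 0 in all 3 control F0 mice, a mean of 25.5% ± 28.6 (SD, n = 3). This is 1 of the 2 F0 calls in Wnt genes without overlap between groups, with an exact permutation p of 0.1, the smallest that 3 mice against 3 allow. The lack of overlap rests on SSCT F0 replicate 2, at 1.01% of 99 reads against 0 on 33 to 53 reads in the controls. The unmethylated spike-in of that library read 0.983%, so its value is near the level of unconverted cytosines.

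The windows at the starts of Sfrp2 (chr3:83766071-83766370, plus strand) and Fzd9 (chr5:135250998-135251297, minus strand) are given because their called CpG, in capitals, lies in an otherwise unmethylated CpG-rich start. In the offspring, the means within 500 bp of these starts were 1.68% and 1.22%.
Sfrp2: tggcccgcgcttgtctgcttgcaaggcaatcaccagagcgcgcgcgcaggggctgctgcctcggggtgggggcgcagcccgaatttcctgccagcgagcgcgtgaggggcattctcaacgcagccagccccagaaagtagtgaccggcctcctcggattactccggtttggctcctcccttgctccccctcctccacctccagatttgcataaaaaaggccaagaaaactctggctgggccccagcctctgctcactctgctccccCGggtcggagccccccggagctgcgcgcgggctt
Fzd9: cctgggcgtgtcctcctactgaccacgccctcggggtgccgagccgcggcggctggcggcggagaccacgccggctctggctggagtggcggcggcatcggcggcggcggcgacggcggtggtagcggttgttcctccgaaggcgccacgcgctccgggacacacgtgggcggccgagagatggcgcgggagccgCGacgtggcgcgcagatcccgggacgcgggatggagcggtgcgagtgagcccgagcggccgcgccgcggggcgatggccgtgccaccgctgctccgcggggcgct
At the called CpG itself, set means of the offspring were 3.43 to 7.71% in Sfrp2 and 0 to 1.13% in Fzd9. Single offspring mice reached 17.3% in Sfrp2, above SSCT F0 replicate 2 and below replicates 1 and 3, and 4.65% in Fzd9.

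Ligands held calls in both directions. Wnt6, a ligand of epithelial development, was at 0, 0 and 100% against 0 in all controls at chr1:74772044, 152 bp downstream of the start. Wnt1 was at 0, 0 and 100% against 12.2, 0 and 0% at chr15:98789724, 133 bp upstream of its start, and Wnt7b, a ligand of lung and kidney, at 0, 0 and 53.5% against 0 at chr15:85581142 inside the span. Wnt10a, which acts in tooth and skin development, was at 0, 34.2 and 0% against 0 at chr1:74792342 and is the only higher call that rests on SSCT F0 replicate 2, without which the difference was 0. The window of Wnt1 (chr15:98789607-98789906, plus strand, called CpG in capitals) shows the position upstream of the start.
Wnt1: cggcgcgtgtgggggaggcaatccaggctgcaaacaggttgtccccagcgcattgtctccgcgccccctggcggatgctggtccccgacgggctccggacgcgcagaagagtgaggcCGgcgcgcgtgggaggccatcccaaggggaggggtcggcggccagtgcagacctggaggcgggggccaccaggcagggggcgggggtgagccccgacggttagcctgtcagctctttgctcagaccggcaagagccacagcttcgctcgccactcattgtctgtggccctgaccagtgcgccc

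The lower calls all lay in 2 ligands, at positions that were mostly methylated in controls. Wnt5b was at 52.3, 68.9 and 0% in SSCT F0 against 61.5, 100 and 60.5% in control F0 at chr6:119451850, at 27.1, 0 and 0% against 18.2, 60.6 and 80.2% at chr6:119451980, and at 42.0, 17.7 and 0% against 45.5, 44.4 and 80.2% at chr6:119451992. These 3 positions lie inside the span, 2464 to 2606 bp upstream of the innermost start. The third is the other F0 call without overlap (19.9% ± 21.1 against 56.7% ± 20.4, SD, n = 3, exact permutation p = 0.1). Wnt3a, a canonical ligand, was at 55.6, 65.7 and 0% against 78.6, 75.3 and 53.3% at chr11:59288093 and at 33.3, 100 and 0% against 100, 76.3 and 85.3% at chr11:59288126, 2658 and 2625 bp downstream of its start. Offspring set means were 53.3 to 79.8% at the Wnt5b positions and 52.2 to 88.4% at the Wnt3a positions, and no offspring mouse was below 13.3% at any of the 5, where SSCT F0 replicate 3 was at 0.

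**Figure D3:**
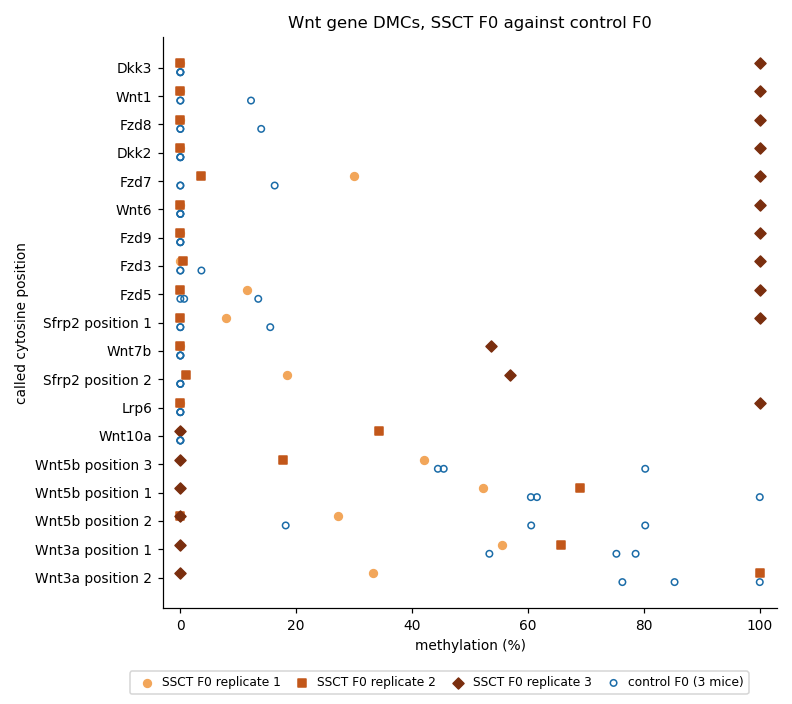
Methylation (%) of each F0 mouse at the 19 Wnt gene DMCs of SSCT F0 against control F0, with the SSCT F0 replicates marked separately from the control F0 mice. SSCT F0 replicate 3 lies at 100% in 11 of the 14 higher positions and at 0 in all 5 lower ones, and the control F0 mice lie near 0 at the higher positions.

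Windows gave 4 DMRs among 70, against a background of 10.0% of 19604 windows (2.76% higher, 7.24% lower). Sfrp2 was higher at chr3:83764001-83765000 (7.81, 0 and 49.8% against 0, 0 and 7.76%) and Dkk3 at chr7:112158001-112159000 (0, 1.00 and 50.3% against 0). Wnt5b was lower at chr6:119451001-119452000 (38.8, 12.9 and 0% against 36.7, 55.8 and 73.9%) and Wnt3a at chr11:59288001-59289000 (44.4, 82.8 and 0% against 89.3, 75.8 and 70.3%). Each window holds 2 or 3 covered positions and at least 1 of the DMCs above, and the groups overlapped in all 4.

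These calls were repeated without SSCT F0 replicate 3. At the same 387 positions, replicates 1 and 2 alone gave 10 DMCs (background 4.42%) and 2 DMRs (background 6.12%). Of the 19 DMCs, 3 were among the 10, namely Wnt10a and the Wnt5b positions chr6:119451980 (a read-weighted difference of -56.9 points) and chr6:119451992 (-36.0 points). Over all positions then covered, 64 of 2073 Wnt positions (3.09%) were DMCs, 47 of them higher, against a background of 5.83%, in 26 genes. At 16 of the 64 the 2 SSCT F0 mice lay wholly outside the control F0 range, and at 47 of the 64 one of the 2 SSCT F0 mice was at 0. The shares of such calls among all DMCs, and of all genes with a DMC, were not computed. Windows gave 7 DMRs of 172 (background 10.1%), in Wnt2b, Wnt7a, Wnt5b, Wnt3a (2 windows), Fzd6 and Lrp5. The window of Wnt5b was a DMR with and without replicate 3, by -54.4 and -45.3 points.

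At the level of whole genes, where the spread between mice enters the test, limma called no Wnt gene in the F0 comparison. Of 31 Wnt genes with at least 3 common positions, 0 passed an adjusted p of 0.05 and 1 had an unadjusted p under 0.05, beside 0 (0.00%) and 788 of all 10777 genes. The median difference was -0.998 points over the Wnt genes and -0.447 over all genes. The largest differences among ligands were in Wnt5b (-22.0 points, SE 12.5), Wnt9b (-12.1, SE 5.50) and Wnt3 (-8.79, SE 3.21), with limma adjusted p-values of 0.742, 0.742 and 0.638. Wnt9b and Wnt3 are neighbouring ligand genes whose spans overlap here and share positions. Wnt3 was at 1.24, 0 and 0% in SSCT F0 against 8.91, 15.4 and 3.32% in control F0, and Wnt9b at 1.98, 0 and 0% against 10.4, 24.1 and 3.74%, without overlap in either. In Wnt5b, SSCT F0 replicates 1 and 2 (39.7 and 37.3%) lay just below the control mice (39.9 to 56.7%), and replicate 3 was at 0.

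Differences in the other classes were smaller. Among receptors they were largest in Fzd4 (6.22 points, SE 3.11), a receptor of retinal vessels, Fzd9 (4.73, SE 2.34) and Lrp6 (3.67, SE 3.08), with limma adjusted p-values of 0.742, 0.742 and 0.760. Fzd4 was at 10.5, 9.66 and 0% in SSCT F0 against 0, 1.46 and 0% in control F0, so here replicate 3 was the lowest of the 3, on 5 positions. Among antagonists, Sfrp2 differed by 6.24 points (SE 4.75) and Dkk2 by 4.78 (SE 4.33), both at a limma adjusted p of 0.760, and Wif1 was at 0 in all 6 mice over its 5 positions. By class, ligands averaged 4.44% ± 2.10 against 8.37% ± 0.474, receptors 2.84% ± 0.948 against 1.71% ± 0.0990, and antagonists, on 3 genes, 4.35% ± 5.54 against 0.674% ± 0.728 (SSCT F0 against control F0, SD, n = 3).

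Without SSCT F0 replicate 3, more positions were common to the F0 mice. Over these positions the differences named above, other than that of Wif1, were smaller or of opposite sign. They were -2.64 points in Wnt5b, -1.29 in Wnt9b, -2.01 in Wnt3, 0.266 in Fzd4, 0.581 in Lrp6, -0.429 in Fzd9, -0.906 in Sfrp2 and -1.17 in Dkk2. The difference of Wif1, 0 with all F0 mice, lay between -4.99 and 0 points when single mice were left out. Mice and positions changed together, so the part of replicate 3 alone was not tested. At the positions common to all F0 mice, every SSCT F0 mouse lay below every control F0 mouse in Wnt9b and Wnt3. Leaving out other single mice moved some of the differences as far, Wnt9b to -1.35 without SSCT F0 replicate 2 and Lrp6 to 0.532 without control F0 replicate 1. Ligands averaged 6.78% against 6.51%, receptors 4.88% in both, and antagonists 7.07% against 7.88%. Among 36 Wnt genes, limma again called 0, and 4 had an unadjusted p under 0.05, beside 15 called and 2213 (9.79%) at an unadjusted p under 0.05 of 22609 genes, so a count of 4 is near the background. These 4 were Wnt1 (3.04 points, SE 0.516), Wnt10b (2.04, SE 0.662), Wnt5b (-2.64, SE 0.637) and Lrp5 (-2.07, SE 0.711), at limma adjusted p-values of 0.235, 0.471, 0.363 and 0.493. Wnt1 was at 6.19 and 6.26% in the 2 SSCT F0 mice against 2.97 to 3.53% in the controls, and Wnt5b at 7.68 and 6.73% against 9.38 to 10.3%. Both were without overlap, on 55 and 116 positions.

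**Figure D4:**
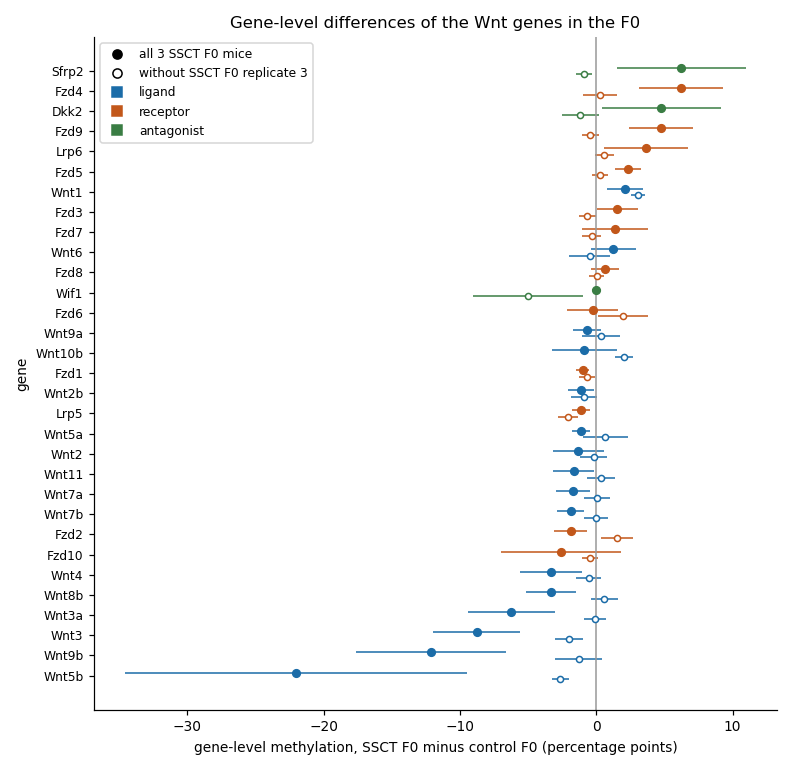
Difference in gene-level methylation (percentage points, SSCT F0 minus control F0) of each Wnt gene with all F0 mice and without SSCT F0 replicate 3. Lines span 1 standard error from limma on each side. The differences of Wnt5b and Wnt9b are -22.0 and -12.1 points with all mice and -2.64 and -1.29 points without replicate 3. The latter rest on a larger set of common positions, so the values compared are not of the same positions.

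In the offspring comparisons, which all share the control F1 mice, few Wnt positions were called. SSCT F1 against control F1 gave 4 DMCs of 1636 Wnt positions (0.244%, background 0.462%), SSCT F2/M 3 of 2004 (0.150%, background 0.420%) and SSCT F2/P 5 of 2173 (0.230%, background 0.430%). All 39 genes had tested positions in each. Control F1 replicate 5 moved these counts most, and without it they were 13, 11 and 15. The shares of all positions called without that mouse are not given here, so the backgrounds above do not apply to these counts. The 12 calls fell on 8 positions in 6 genes, and at 1 of the 12 the groups did not overlap. No window was a DMR in any of the 3, of 209, 233 and 232 windows tested by the chi-square test (backgrounds 0.415%, 0.363% and 0.392%). At an unadjusted p under 0.05 there were 89, 115 and 116 windows (42.6%, 49.4% and 50.0%, beside 48.5%, 48.6% and 48.8% of all windows), none of them with a difference above 25 points, and the test with overdispersion gave 0 calls as well.

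The position without overlap was in Fzd10, a Frizzled of neural and limb development, at chr5:128602422, inside the span and 1316 bp downstream of the start. Control F1 mice were at 79.2, 30.4, 60.0, 80 and 35.5%, and SSCT F2/M mice at 27.8, 0, 13, 23.1 and 16.7%. The read-weighted difference was -38.7 points (q = 3.29e-09, chi-square test). The means were 57.0% ± 23.4 and 16.1% ± 10.7 (SD, n = 5), and the exact permutation p of 0.00794 was the smallest that 5 mice against 5 allow. This p was computed after the call in the same mice and is not corrected for the positions tested. SSCT F1 mice averaged 13.7% ± 16.5 (SD, n = 4) and SSCT F2/P mice 37.7% ± 18.8 at this position. The 4 nearby Fzd10 positions covered in all 20 offspring averaged 38.3 to 42.9%. Under the heatmap naming the same 2 sets swap control and SSCT F2/M, and under the exchanged naming they are control F1 and SSCT F2/P, so the difference becomes 38.7 points in the other direction. The call remained whichever mouse was left out.

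Wnt2b, a canonical ligand, was called at its start, chr3:104961709, in SSCT F1 and SSCT F2/P. All 5 SSCT F1 mice were at 0, and control F1 mice were at 45.7, 29.2, 50.0, 46.2 and 0%. SSCT F2/P mice were at 22, 0, 5.26, 9.52 and 0%. The read-weighted differences were -33.8 and -26.1 points, with exact permutation p-values of 0.0476 and 0.0556 and q-values of 4.85e-12 and 3.60e-07 (chi-square test). The groups overlapped through control F1 replicate 5 alone, which was at 0. The SSCT F1 call remained whichever mouse was left out (-28.9 to -40.6 points), whereas the SSCT F2/P call was lost without SSCT F2/P replicate 2 or control F1 replicate 1, 3 or 4 (-21.3 to -25.0 points). SSCT F2/M mice, where this position was not called, averaged 11.7% ± 14.5 (SD, n = 4). The window at this start (chr3:104961660-104961959, minus strand) holds 43 CpGs, of which the called one is in capitals, and the 9 positions within 500 bp that were covered in all 20 offspring averaged 0.815%.
Wnt2b: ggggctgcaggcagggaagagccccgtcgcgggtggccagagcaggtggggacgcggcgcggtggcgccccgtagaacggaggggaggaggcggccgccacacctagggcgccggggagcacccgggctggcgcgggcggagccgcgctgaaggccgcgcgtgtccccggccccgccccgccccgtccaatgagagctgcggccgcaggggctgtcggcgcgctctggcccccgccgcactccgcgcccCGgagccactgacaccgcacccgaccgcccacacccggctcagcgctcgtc

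Receptor Fzd4 was called in SSCT F1 at chr7:89404594, 228 bp downstream of its start (30.5 points, q = 9.69e-09, chi-square test). SSCT F1 mice were at 33.3, 0, 22.7, 13.6 and 66.7%, and control F1 mice at 0 except replicate 3 at 3.85% (exact permutation p = 0.0476). SSCT F2/P mice averaged 14.9% ± 12.6 (SD, n = 4) and SSCT F2/M mice 2.22% ± 4.97 at this position, and neither was called. Without SSCT F1 replicate 5 the difference was 17 points and no longer a call.

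Antagonist Wif1 was called at 2 neighbouring positions deep in its span, chr10:121083951 and chr10:121083964, in both SSCT F1 and SSCT F2/P. At the first, control F1 mice were at 4.76, 35.9, 57.3, 48.7 and 35.4%, SSCT F1 mice at 69.8, 21.2, 39.4, 86.6 and 75.8%, and SSCT F2/P mice at 75.6, 62.1, 67.3, 80 and 51.9%. SSCT F1 and control F1 overlapped widely, whereas SSCT F2/P and control F1 overlapped by 1 mouse of each. The differences were 31.2 points in SSCT F1 and 26.5 in SSCT F2/P (exact permutation p = 0.175 and 0.0159). At the second position they were 26.5 and 28.1 points (exact permutation p = 0.175 and 0.0238), and SSCT F2/M averaged 38.4% ± 14 and 44% ± 8.90 at the 2 positions without a call. All 4 calls were lost without single mice, the SSCT F1 calls at 18.4 and 14.2 points without SSCT F1 replicate 4, and the SSCT F2/P calls at 21.2 and 23.4 points without control F1 replicate 1.

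Ligand Wnt5b was called at chr6:119520813 in SSCT F2/M (25.1 points) and SSCT F2/P (31.4 points) and at chr6:119534553 in SSCT F2/P (36.8 points), 23534 and 9794 bp downstream of its outermost start. At the last, control F1 mice were at 47.1, 0, 34.4, 54.8 and 34.6% and SSCT F2/P mice at 98.0, 70.0, 94.1, 55 and 52.4%, with overlap of 1 mouse of each (exact permutation p = 0.0159). At chr6:119520813 control F1 mice spanned 14.3 to 71.4%, SSCT F2/M 40.6 to 78.8% and SSCT F2/P 42.1 to 86.2% (exact permutation p = 0.135 and 0.111). Wnt9b, a ligand of kidney and face development, was called in SSCT F2/M at chr11:103731333 (-29.5 points), where control F1 mice spread from 0 to 100% and SSCT F2/M mice from 0 to 36.8% (exact permutation p = 0.198). The call of Wnt9b and both at chr6:119520813 were lost without control F1 replicate 1 (-22.6, 17.3 and 23.6 points) and without some other single mice, while that at chr6:119534553 remained whichever mouse was left out.

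**Figure D5:**
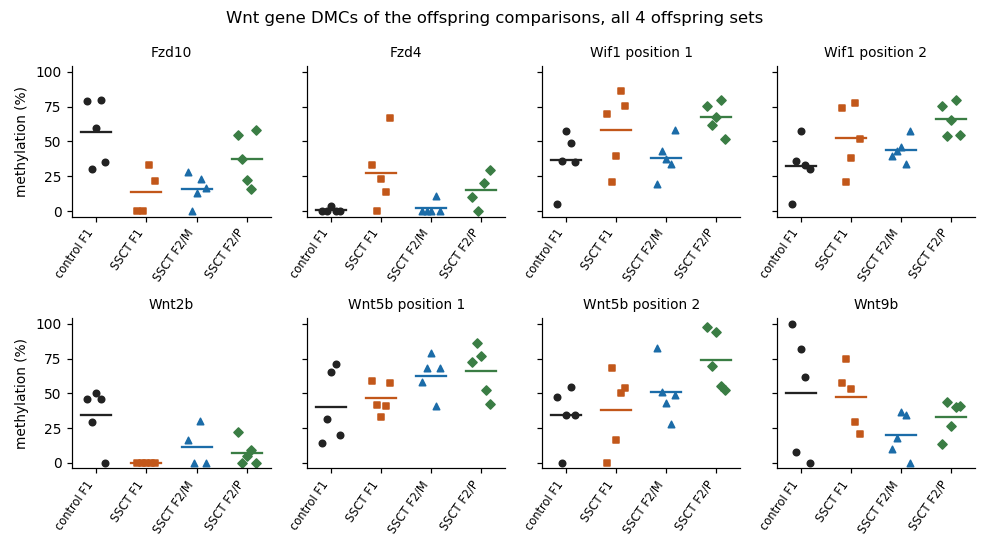
Methylation (%) of each of the 20 offspring at the 8 Wnt gene positions called in an offspring comparison, by set under the sample titles. At Fzd10 the control F1 and SSCT F2/M mice do not overlap, at Wnt2b all SSCT F1 mice lie at 0, and at the other positions the mice of the compared sets overlap.

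Under the other namings, the sets titled SSCT F2/P and SSCT F2/M are the SSCT F1 comparison, and 4 of 2228 Wnt positions (background 0.404%) and 1 of 234 windows (background 0.368%) were called. These were Fzd5 at chr1:64731697 (25.7 points), Lrp6 at chr6:134479490 (30.7 points, alone in its window, the DMR) and Wif1 at chr10:121063688 (-26.3) and chr10:121084153 (25.3). The sets titled SSCT F1 and SSCT F2/M are the heatmap comparison for SSCT F2/P, and there 2 of 1758 positions (background 0.439%) and no window (background 0.369%) were called. These were Fzd4 at chr7:89404594 (29.3 points) and Wif1 at chr10:121083951 (27.9 points). These 2 positions were also called under the titles, and the set titled SSCT F1 is the higher one in each. The exchanged naming gives these 2 calls to SSCT F2/M, and its SSCT F2/P comparison is the reverse of the title SSCT F2/M comparison, with 3 of 2004 positions called, in Fzd10, Wnt5b (chr6:119520813) and Wnt9b. The Wnt2b position, Wnt5b chr6:119534553 and Wif1 chr10:121083964 were called under the titles alone.

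Gene-level tests called no Wnt gene in the offspring. limma gave 0 of 38 Wnt genes for F1, 0 of 38 for F2/M and 0 of 37 for F2/P offspring, beside 0.00% of 24231, 24721 and 25050 genes. At an unadjusted p under 0.05 there were 0, 2 and 0 Wnt genes, beside 1104, 1123 and 1170 of all genes. The 2 were Wnt5b (1.62 points, SE 0.558) and Wnt3a (1.71 points, SE 0.482) in SSCT F2/M, both at a limma adjusted p of 0.979. Median differences were -0.0616, -0.116 and -0.132 points over the Wnt genes and 0.00, 0.00792 and -0.0202 over all genes.

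The limma F test over the 4 sets, which does not depend on their names, called 0 of 36 Wnt genes and 1 of 22508 genes (0.00444%). Only Wnt5b had an unadjusted p under 0.05 among the Wnt genes (0.0434, limma adjusted p = 0.991), beside 1077 of all genes. Its set means were 21.1% ± 1.24 in control F1, 21.5% ± 1.07 in SSCT F1, 23.2% ± 0.432 in SSCT F2/M, and for SSCT F2/P 23.1% ± 2.04 (SD, n = 5), a range of 2.13 points. Mice of SSCT F2/M lay at 22.8 to 23.7% and control F1 mice at 19.8 to 22.9%, so these 2 sets overlapped.

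Of 36 other genes of the pathway, which act in Wnt secretion, as agonists, as other receptors or antagonists, or in transduction, 26 had positions covered in all F0 libraries, and 16 of 313 positions in 8 of them were DMCs in SSCT F0 (10 higher, 6 lower), or 5.11% against the background of 5.83%. Lgr4, a receptor of R-spondins, was at 100, 100 and 0% in SSCT F0 against 100% in all controls at chr2:109932577, and Kremen2, a Dkk receptor, at 3.57, 36.4 and 100% against 0 at chr17:23742697. Ror2, a receptor of Wnt5a, was at 48.0, 9.06 and 0% against 68.9, 82.4 and 87.5% at chr13:53234720, and Tcf7l2, a transcription factor of the pathway, at 33.3, 12.3 and 0% against 59.0, 60.3 and 69.8% at chr19:55925592. The groups did not overlap at the called positions of Kremen2, Ror2 and Tcf7l2 given here. The other DMCs were in the same 4 genes, in both directions and with overlap, and in Draxin, Znrf3, Apc and Csnk1a1, where all were higher with SSCT F0 replicate 3 at 99.5 to 100%. Windows gave 5 DMRs of 56 (8.93%, background 10.0%), in Lgr4, Ror2, Kremen2 and Tcf7l2. In the offspring, 4 of 1868 positions (0.214%, background 0.462%) were DMCs in SSCT F1, all lower, in Lgr5, Axin2 and Gsk3b, and 0 of 2006 and 0 of 2255 for the F2/M and F2/P offspring by the chi-square test, where 746 and 832 had an unadjusted p under 0.05. Axin2, a feedback inhibitor of the pathway, was at 26.7, 22.7, 17.9, 55 and 42.9% in SSCT F1 and at 81.2, 83.3, 47.1, 78.9 and 77.8% in control F1 at chr11:108942341 (exact permutation p = 0.0159), with overlap of 1 mouse in each group. No window was a DMR in these genes in the offspring, of 297, 292 and 320.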

How the data were processed

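Sperm DNA of 26 mice was analysed by RRBS. The deposited files hold, for each cytosine of a CpG, the read count and the methylated fraction as the authors made them, 1 file per mouse with no pooling. The submitters' processing notes name FastQC, Trim Galore 0.4.1, Bismark 0.20.0 and methylKit 1.7.0, with the builds GRCm38 and mm10. RRBS covers CpG-rich fragments only, and reads carry no molecular identifiers, so read-based q-values cover counting error only. All 303684 positions inside the 300-base start windows fell on a CpG of GRCm38.

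Methylated reads were recovered as fraction times count. Spike-in rows were left out. Positions needed at least 10 reads and lay at or below the 99.9th percentile of coverage in every library compared. DMCs and DMRs were called with a chi-square likelihood-ratio test without overdispersion (q under 0.01, difference above 25 points). Coverage limits, window size and both thresholds follow the study's methods, which name methylKit but give neither the form of its test nor its q-value adjustment, so the test, its lack of overdispersion and the Benjamini-Hochberg adjustment were chosen here. Gene-level methylation, the mean percent over at least 3 common positions, was tested with limma 3.58.1 in R 4.3.3 (Benjamini-Hochberg adjusted p under 0.05). Single positions were given two-sided exact permutation tests over mice only after they were called, without correction for that choice. Python 3.11.15, numpy 2.4.6, pandas 2.3.3, scipy 1.17.1 and matplotlib 3.10.9 were used. The tests were tested on simulated data, where the F test with overdispersion recovered no change in 3 mice against 3. For positions, reads were simulated without spread between mice, so recovery and false calls at the spread of these data were not tested.

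Groups were taken from sample titles. The numbers of tested positions were closest to the published ones under the exchanged heatmap naming. Of 55 coverage means given by the study, 0 matched under the titles, 35 under the heatmap naming and 52 under the exchanged heatmap naming. Same-numbered mice of the compared groups did not deviate together in gene-level methylation (correlations of -0.0425 to 0.0571). No pairing by number was thus seen, but a pairing that leaves no such correlation is not excluded. None of 190 pairs of offspring libraries agreed within sampling noise (smallest mean chi-square 6.61 per position, where 1 is noise alone). Sample titles call the replicates biological.

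The members, the other pathway genes and the tests were chosen with earlier results of these data known. Named with values are members with a DMC or DMR, the 3 members of each class with the largest F0 gene-level difference, and the 3 highest and 3 lowest of each class in offspring. Start sequences were taken from RefSeq (GRCm38.p6) for 29 starts, and no entry was found for Wnt8a, Sfrp1, Fzd6, Wnt7b, Dkk3, Fzd3, Fzd2, Lrp5, Fzd8, Sfrp4, Wnt10a, Wnt5a and Lrp6. Alternatives were other coverage minimums, an F test with overdispersion, a replicate block, merged strands, shifted windows, other namings and leaving out each mouse.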

Additional observations from a re-analysis of the deposited data

Results flagged for a closer look

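Of 144 sets of 5 offspring at gene level, 12 held 1 mouse far from the other 4. The cut used gives about 5% for normally distributed values, which does not hold for levels near 0 on few positions. The share of such sets over all genes was not computed, so the count is no result about Wnt genes. Dkk2 had 1 control F1 mouse at 10.9% (others 0.420 to 2.01%) and 1 SSCT F1 mouse at 5.60% (others 0 to 0.177%), on 4 positions. Sfrp5, on 3 positions, had 1 SSCT F1 mouse at 9.65% (others 0 to 2.15%) and 1 SSCT F2/P mouse at 9.80% (others at 0). Among receptors, Fzd1 had an SSCT F2/M mouse at 0 (others 0.948 to 1.26%), Fzd4 an SSCT F1 mouse at 2.20% (others 0.368 to 0.725%), Fzd6 an SSCT F2/M mouse at 53.5% (others 48.2 to 49.7%) and Fzd8 a control F1 mouse at 1.27% (others 0.663 to 0.799%). Among ligands, Wnt7a had an SSCT F2/M mouse at 31.6% (others 33.1 to 33.5%), Wnt11 an SSCT F2/M mouse at 14.1% (others 12.4 to 12.8%), Wnt3 an SSCT F2/P mouse at 23.9% (others 20.8 to 21.7%) and Wnt5a a control F1 mouse at 1.82% (others 2.71 to 3.01%). At the single Fzd4 position called in SSCT F1, 1 control F1 mouse was at 3.85% and the others at 0.

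In 5 of 93 pairs of comparisons, every SSCT F0 mouse lay below the mean of control F0 and every offspring mouse above the mean of control F1. The difference between the comparisons was not tested, and the positions differ between them. The share of such pairs over all genes was not computed. All but the Wnt9b pair use the set titled SSCT F2/M, which is control F1 under both other namings, and Wnt9b and Wnt3 share positions. Wnt9b differed by -12.1 points in SSCT F0, and SSCT F1 mice lay 0.0472 to 2.55 points above control F1. In SSCT F2/M, Wnt5b mice lay 1.68 to 2.63 points above control F1 (-22.0 points in SSCT F0), Wnt3a mice 0.636 to 2.89 points (-6.25), Wnt3 mice 0.0791 to 1.68 points (-8.79) and Wnt7b mice 0.0668 to 0.536 points (-1.86).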

How the results depend on the processing

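Counts of DMCs in Wnt genes (19 in SSCT F0, and 4, 3 and 5 in the F1, F2/M and F2/P offspring) moved with the coverage minimum. They were 9, 2, 0 and 0 at 20 reads, of 217, 468, 664 and 700 positions tested. In the offspring they were 9, 16 and 12 at 5 reads, of 2988, 3312 and 3440. The share called thus went from 4.91% to 4.15% in SSCT F0 and from 0.244% to 0.427% in SSCT F1 at 20 reads. The shares over all positions at these minimums are not given here. The F test with overdispersion gave 0 DMCs in all 4, where 41, 115, 142 and 162 Wnt positions had an unadjusted p under 0.05, and 0 DMRs in SSCT F0. SSCT F2/P gave 2 DMCs under the heatmap naming, 3 under the exchanged heatmap naming and 3 with strands merged. The 4 DMRs of SSCT F0 became 2 at 20 reads, SSCT F1 gave 2 DMRs and SSCT F2/P 1 at 5 reads, and SSCT F1 gave 1 under both other namings. Of the alternatives added after seeing the data, the difference of mouse means gave 6 DMCs and 2 DMRs in SSCT F2/M, 2 DMRs in SSCT F0 and 1 in SSCT F1, and SSCT F0 replicates 1 and 2 at the same positions gave 10 DMCs and 2 DMRs. Leaving out 1 mouse gave 21 to 64, 4 to 13, 2 to 11 and 2 to 15 DMCs, and 4 to 8, 0 to 2, 0 to 2 and 0 to 2 DMRs. The positions tested changed as well, and the 64 were of 2073 Wnt positions, against 387 with all F0 mice. The mice that moved a DMC count by over 1.5 times were SSCT F0 replicate 3, SSCT F1 replicates 1, 2 and 5, SSCT F2/M replicates 1, 2, 4 and 5, SSCT F2/P replicate 3 and all control F1 mice in 1 or more comparisons. DMR counts moved so without SSCT F0 replicates 2 and 3, SSCT F1 replicates 2 and 5, SSCT F2/M replicates 1 to 4 and control F1 replicates 1, 2, 3 and 5. The causes were not tested. No Wnt gene was called at gene level by limma under any alternative run. The median difference in SSCT F0 (-0.998 points) was -0.538 read-weighted, -6.82 over each library's own positions and -1.06 to -0.272 without 1 mouse, and in SSCT F2/M -0.791 over own positions. Without 1 mouse it lay between -0.253 and 0.0377 for F1, -0.194 and 0.0844 for F2/M, and -0.325 and -0.0460 for F2/P offspring.

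Direction turned at 5 F0 positions without SSCT F0 replicate 3, at the same positions as well, to -0.232 points in Fzd5, -1.39 in Sfrp2 (chr3:83764053), -1.03 in Fzd3, -4.24 in Wnt1 and -5.08 in Fzd8. Without other single mice these reached up to 77.7, 68.7, 86.8, 90.4 and 88.6 points, in the same order. At gene level Dkk2, Fzd9 and Sfrp2 turned to -1.17, -0.429 and -0.906 points without that mouse, over the positions then common (up to 7.18, 6.09 and 10.3 without another). Dkk2, Fzd4, Lrp6 and Sfrp2 turned to -13.1, -5.91, -4.99 and -3.19 over own positions. Under the heatmap naming SSCT F2/M turned to 38.7 points in Fzd10, -25.1 in Wnt5b and 29.5 in Wnt9b, and SSCT F2/P to -13.4 and -8.27 in Wnt5b. Under the exchanged heatmap naming SSCT F2/M turned to -13.4 in Wnt5b and 16.6 in Wnt9b, and SSCT F2/P to -25.1 and -17.3 in Wnt5b and to -3.24 and -12.3 in Wif1.

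With the replicate block, DMCs numbered 18, 4, 3 and 5 and DMRs 4, 0, 0 and 0, and 0 Wnt genes were called at gene level. No pairing by replicate number was seen, and the block changed no count by over 1.5 times.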
